A study of Rattus norvegicus with 43 samples.

Results

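The genes described are those of the proteasome, the barrel-shaped protease that degrades ubiquitin-tagged proteins, in the distal colon of rats on 6 diets. They were chosen by name: every gene symbol that begins with Psma to Psmg and a number was taken, with the probe set of highest mean for each symbol. This gave 47 of the 14506 symbols on the array. Of these, 45 are proteasome genes and 2, Psmc3ip and Psme3ip1, share only the letters of the name and are kept apart below. The thymus-type subunit Psmb11 had a median log2 value of 3.93 over the arrays, under the floor of 4.79 set on that median, so 46 of the 47 were tested. The alpha subunit Psma3 is represented by a probe set listed as Psma3l, whose gene identifier has no match in the RefSeq table used here. Psma8, Psmf1 and Psmg3 had no probe set with a single symbol and were not analysed here.

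Tissue came from Sprague Dawley rats of 11 weeks, and each of the 43 arrays was made from 100 ng of total RNA of a different animal. The 6 diets were a control (CON, 5 rats) and Western-type diets with low-amylose maize starch (LAMS, 7 rats), high-amylose maize starch (HAMS, 8 rats), butyrylated high-amylose maize starch (HAMSB, 9 rats), low-amylose wheat (LAW, 6 rats) or high-amylose wheat (HAW, 8 rats). The labels give these diets as codes, and their meaning is taken from general knowledge of this study. High-amylose starch resists digestion and reaches the large bowel, and butyrylated starch also carries butyrate there. All values are log2 RMA values, in which 1 unit is a doubling. Values of different genes come from different probes and are not compared with each other.

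The core of the proteasome, called 20S, is a stack of rings: outer rings of alpha subunits (Psma) that form the gate, and inner rings of beta subunits (Psmb) that carry the active sites in Psmb5, Psmb6 and Psmb7. The 19S cap (Psmc ATPases and Psmd subunits) recognises and unfolds substrates, and the activators Psme1 to Psme4 can open the gate in its place. Interferon-gamma induces Psmb8, Psmb9 and Psmb10, which replace Psmb5, Psmb6 and Psmb7 in new particles to give the immunoproteasome. That form favours cuts that yield peptides for MHC class I, and lymphoid cells carry it without induction.

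Promoters from both sets are shown first, because the interferon-induced and the standard subunits followed the lymphoid content of the tissue in opposite directions. Those of Psmb7 and Psme1 are not printed. The promoter of Psme4 is added because Psme4 had the smallest p of the members over the 6 diets. Psmb8 lies on chromosome 20 at 4654068 to 4657049 and Psmb9 on chromosome 20 at 4668952 to 4674421 in the rat assembly GRCr8, inside the MHC region. The RefSeq windows of Psmb9 and of Tap1, the peptide transporter beside it, face away from each other and share bases: chr20:4668750-4669049 on the plus strand and chr20:4668494-4668793 on the minus strand. Psmb10 lies apart from them on chromosome 19 at 50740808 to 50743292. Each stretch below runs 5′ to 3′ on the gene's own strand, from 150 bases before to 25 bases after the start used in the RefSeq promoter table for GRCr8, which can lie inside or outside the gene bounds given here. In the first 4, capitals mark the letters GAAANNGAAA on either strand, the core of the interferon-stimulated response element.
Psmb8 (chr20:4657007-4657181, minus strand): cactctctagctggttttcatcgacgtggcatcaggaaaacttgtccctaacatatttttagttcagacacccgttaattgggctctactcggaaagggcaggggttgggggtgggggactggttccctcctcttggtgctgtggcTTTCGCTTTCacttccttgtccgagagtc
Psmb9 (chr20:4668850-4669024, plus strand): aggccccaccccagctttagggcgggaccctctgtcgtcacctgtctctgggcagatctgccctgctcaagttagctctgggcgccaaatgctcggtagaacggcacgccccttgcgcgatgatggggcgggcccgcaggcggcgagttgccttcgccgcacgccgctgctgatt
Psmb10 (chr19:50743268-50743442, minus strand): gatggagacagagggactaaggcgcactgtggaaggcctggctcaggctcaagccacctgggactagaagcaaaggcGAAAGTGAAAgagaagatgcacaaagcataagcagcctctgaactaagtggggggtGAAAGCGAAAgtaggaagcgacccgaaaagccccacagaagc
Psme2 (chr15:33052727-33052901, minus strand): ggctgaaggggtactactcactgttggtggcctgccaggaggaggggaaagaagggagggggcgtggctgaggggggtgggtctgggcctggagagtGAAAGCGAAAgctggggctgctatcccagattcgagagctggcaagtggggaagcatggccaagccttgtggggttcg
In the next 3, capitals mark TGACNNNGC on either strand, the core of the antioxidant response element that Nfe2l1 and Nfe2l2 bind.
Psmb5 (chr15:32047355-32047529, minus strand): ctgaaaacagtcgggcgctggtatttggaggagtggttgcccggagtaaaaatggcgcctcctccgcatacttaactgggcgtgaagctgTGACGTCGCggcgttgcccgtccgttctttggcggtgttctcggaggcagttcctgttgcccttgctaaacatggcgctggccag
Psmb6 (chr10:55737738-55737912, plus strand): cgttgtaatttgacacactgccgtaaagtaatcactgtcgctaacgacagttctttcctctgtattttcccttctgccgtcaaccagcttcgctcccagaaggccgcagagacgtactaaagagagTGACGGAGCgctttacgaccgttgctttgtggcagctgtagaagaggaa
Psme4 (chr14:108706493-108706667, plus strand): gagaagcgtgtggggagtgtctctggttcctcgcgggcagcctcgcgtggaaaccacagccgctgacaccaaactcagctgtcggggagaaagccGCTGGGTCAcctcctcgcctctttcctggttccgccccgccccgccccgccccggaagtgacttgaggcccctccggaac

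Psmb10 held the interferon letters at 2 places, Psmb8 held them across its start on the minus strand, and Psme2 held them once. The Psmb9 window did not hold these letters, while that of Tap1 did, beginning 121 bases before the Tap1 start. Over the 300-base windows, GAAANNGAAA was found in 7 of the 41 members with a window (17.1%) and in 3.70% of 21851 protein-coding genes. The other members with it were Psma4, Psmb3, Psmd7 and Psmg4. TGACNNNGC was found in 7 of 41 members (17.1%) and in 12.5% of protein-coding genes. A gamma-activated site, searched as TTCNNNGAA, which reads the same on both strands, was found in 4 of 41 (9.76%, against 8.32% of protein-coding genes), among them Psmb8. The windows of Psmb7 and Psme1 held none of these motifs. In no member did a match of 1 motif overlap a match of another. A match of letters is a description and says nothing of binding in these animals.

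Psmb8 and Psmb9 varied more between rats of 1 diet than any other member tested, and Psmb10 did not. Psmb8 in CON was at 6.98, 7.22, 7.24, 7.34 and 8.31. Its lowest, median and highest values were 6.89, 7.36 and 7.93 in LAMS and 6.86, 8.23 and 8.65 in HAMS. They were 7.20, 7.31 and 8.43 in HAMSB, 6.83, 7.20 and 8.47 in LAW, and 7.03, 7.32 and 8.62 in HAW. HAMS therefore had the highest median, and each of the other 5 diets had a highest rat at 7.93 or above. All ranges overlapped. The standard deviation of Psmb8 within a diet was 0.523, larger than that of 96% of the genes tested, and that of Psmb9 was 0.379, larger than that of 89.5%. That of Psmb10 was 0.24, larger than that of 50.2%. The median was 0.244 over the members and 0.24 over all genes tested. At the other end, the alpha subunit Psma7 had a standard deviation of 0.121.

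Psmb9 in CON was at 6.43, 6.71, 7.34, 7.61 and 8.01, and its medians in the other diets were 7.33 in LAMS, 7.78 in HAMS, 7.60 in HAMSB, 7.27 in LAW and 7.24 in HAW. Psmb10 in CON was at 7.07, 7.08, 7.46, 7.51 and 7.67, with medians of 7.32 in LAMS, 7.60 in HAMS, 7.40 in HAMSB, 7.39 in LAW and 7.35 in HAW. HAMS had the highest median for all 3 immunoproteasome subunits. The differences between diets did not pass the test, however. The tests are moderated ones from limma, with Benjamini-Hochberg adjustment across the 10828 genes tested and a threshold of 0.05. In HAMS minus LAMS, Psmb8 differed by 0.66 ± 0.26 (SE, adjusted p = 0.0708), and 5 of the 8 HAMS rats lay above every LAMS rat. Psmb9 differed by 0.38 ± 0.19 (adjusted p = 0.15) and Psmb10 by 0.22 ± 0.12 (adjusted p = 0.207). The 95% interval for Psmb8, 0.14 to 1.18, shows how wide a difference these arrays leave possible.

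In HAMSB minus HAMS the differences were -0.52 ± 0.24 for Psmb8 (limma adjusted p = 0.121), -0.11 ± 0.18 for Psmb9 and -0.14 ± 0.12 for Psmb10. In HAW minus HAMS they were -0.57 ± 0.25 for Psmb8 (adjusted p = 0.108), -0.50 ± 0.18 for Psmb9 (adjusted p = 0.0586) and -0.22 ± 0.12 for Psmb10. Both of these comparisons and HAMS minus LAMS use the same 8 HAMS rats. The Psmb8 difference between HAMSB and HAMS passed with the naming style of the array files as a block (-0.72, adjusted p = 0.0409), and it was 0.00 with the lymphoid level, defined below, as a covariate. With arrays weighted by their quality, all 3 subunits passed in HAMS minus LAMS: Psmb8 at 0.84 (limma adjusted p = 0.00457), Psmb9 at 0.45 (adjusted p = 0.0425) and Psmb10 at 0.38 (adjusted p = 0.0154). In that comparison the weights called 4046 of the 10828 genes tested, beside 1536 without them. With the lymphoid level as a covariate the Psmb8 difference there was 0.25 (adjusted p = 0.2).

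**Figure D1:**
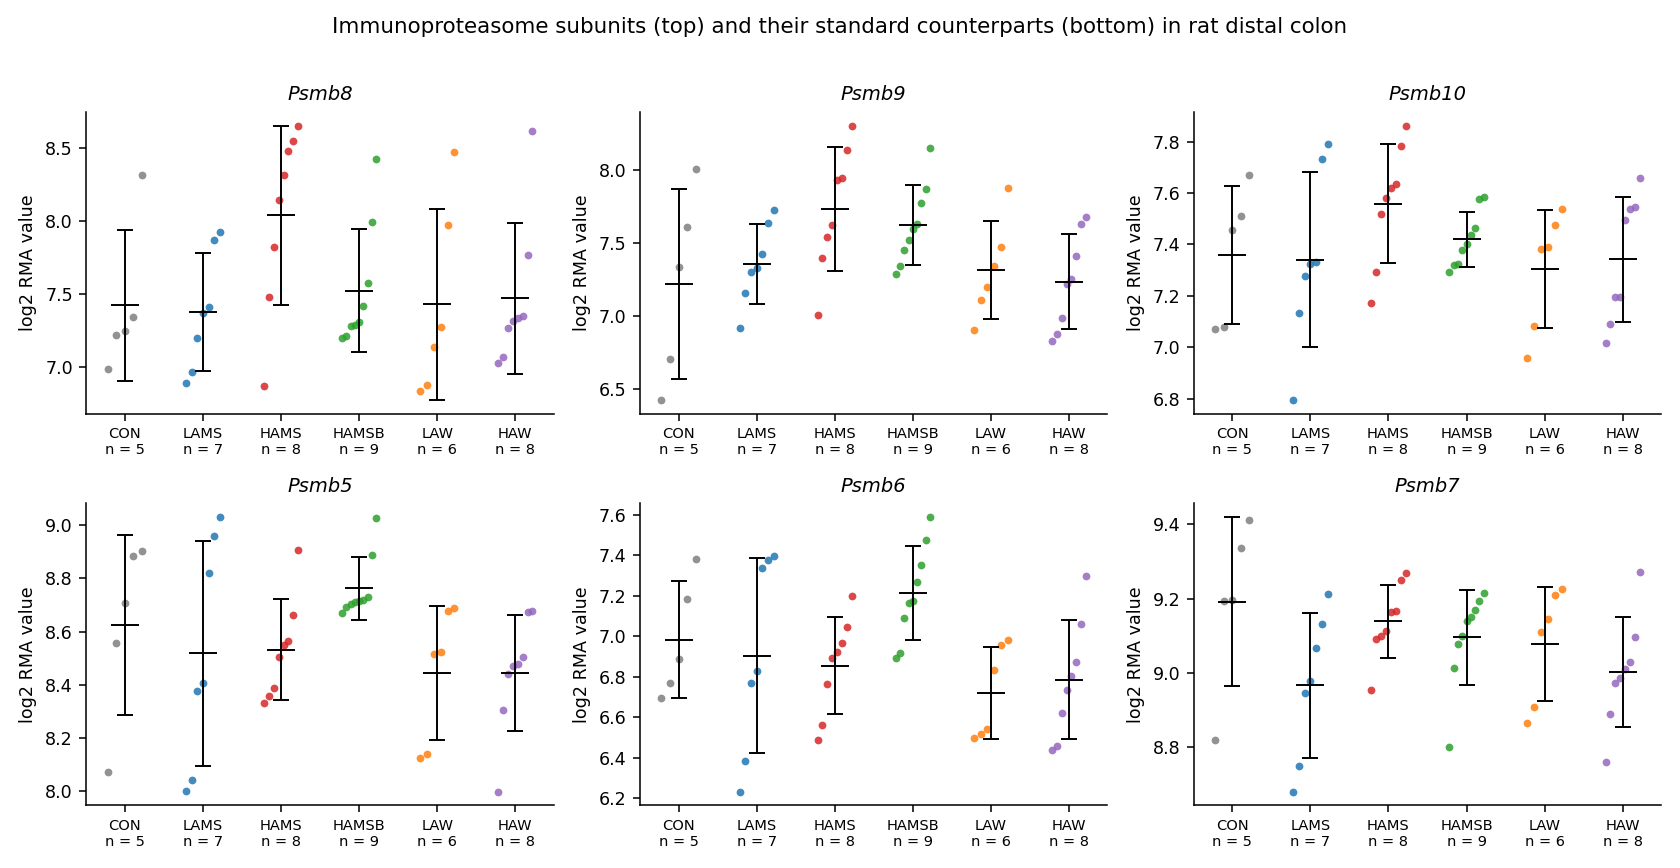
Log2 RMA values of the 3 immunoproteasome subunits (top) and of the standard subunit that each replaces (bottom) in the 6 diets. Each point is 1 rat, the long bar the diet mean and the whiskers 1 SD; Psmb8 had its highest median, 8.23, in HAMS, and every diet held at least 1 rat with a high value.

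The standard catalytic subunits did not show the HAMS maximum. Psmb5, which carries the chymotrypsin-like site, was at 8.07, 8.56, 8.71, 8.88 and 8.90 in CON, with medians of 8.41 in LAMS, 8.53 in HAMS, 8.72 in HAMSB, 8.52 in LAW and 8.47 in HAW. Psmb6, which carries the caspase-like site, was at 6.70, 6.77, 6.89, 7.18 and 7.38 in CON, with medians of 6.83 in LAMS, 6.91 in HAMS, 7.17 in HAMSB, 6.69 in LAW and 6.77 in HAW. Psmb7, which carries the trypsin-like site, was at 8.82, 9.19, 9.20, 9.34 and 9.41 in CON and had medians in the other diets from 8.98 in LAMS to 9.14 in HAMS and HAMSB. None of the 3 passed in a comparison of diets without a block, covariate or weights. The closest was Psmb6 in HAMSB minus HAMS, at 0.36 ± 0.14 (limma adjusted p = 0.0734). Psmb6 passed there with naming style as a block, within 1 naming style, with the compared diets fitted alone and with array weights. Within 1 naming style it also passed in HAMS minus LAMS. With array weights Psmb5 and Psmb6 passed in HAMSB minus LAMS, and Psmb7 in LAMS minus CON.

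Set against its counterpart on the same array, each immunoproteasome subunit gives a balance free of any shift shared by all values of that array. Whether the balance depends on the spread of values on an array was not tested. Centred on its mean over all arrays, Psmb8 minus Psmb5 was 0.51 ± 0.65 (SD, n = 8) in HAMS and had means from -0.24 to 0.03 in the other 5 diets. Psmb9 minus Psmb6 was 0.36 ± 0.28 (SD, n = 8) in HAMS and had means from -0.28 to 0.08 elsewhere. Psmb10 minus Psmb7 had means from -0.15 to 0.10. For Psmb9 minus Psmb6 no HAMS rat lay below 0.00, but the ranges of all diets overlapped.

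Lymphoid tissue in the samples moved with these genes. The mean of 11 B cell and germinal centre genes, called the lymphoid level here, had a median of 8.13 in HAMS and of 5.54 to 5.74 in the other diets. They are 11 of 14 listed genes on the array, and the medians of Ms4a1, Fcer2 and Cd72 lay below the floor. The level ran from 5.53 to 7.87 in CON, 5.33 to 8.67 in LAMS, 5.48 to 9.06 in HAMS, 5.43 to 7.96 in HAMSB, 5.45 to 8.58 in LAW and 5.52 to 8.85 in HAW. The arrays were spread unevenly along it, with 25 below 6, 3 between and 15 at 7 or above. Of those 15, 6 were HAMS rats. More cells of a type and more RNA per cell cannot be told apart in whole tissue.

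With diet in the model, 20 members followed the lymphoid level, 6 upward and 14 downward. The background is high, as 54% of all genes tested passed, 18.7% upward and 35.3% downward. The share of members, 43.5%, was no higher. What set the members apart from each other was the direction by role. All 3 immunoproteasome subunits rose with the level. Psmb8 rose by 0.37 ± 0.03 log2 units for each unit (SE, limma adjusted p = 1.27e-13), Psmb9 by 0.14 ± 0.04 and Psmb10 by 0.07 ± 0.03. On the rat with the highest lymphoid level of its diet, Psmb8 lay above the diet median in all 6 diets. In CON that rat was at 8.31 against a diet median of 7.24, and in HAW at 8.62 against 7.32.

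The activators Psme1 and Psme2, which form a ring that interferon also induces, rose by 0.11 ± 0.03 (limma adjusted p = 0.00157) and 0.06 ± 0.02 (adjusted p = 0.0263) per unit. Psme3, a mainly nuclear activator, rose by 0.13 ± 0.02 (adjusted p = 4.52e-06). The PA200 activator Psme4 did not pass. Between diets Psme1 and Psme2 stayed close: Psme1 had medians from 8.74 to 8.86 and Psme2 from 9.22 to 9.34. In CON, Psme1 was at 8.69, 8.70, 8.74, 8.79 and 9.01, and Psme2 at 9.02, 9.28, 9.34, 9.49 and 9.52. The largest difference of either in a comparison of 2 diets was -0.14 ± 0.13, for Psme1 in HAMSB minus LAMS.

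Of the 14 standard 20S genes, 10 fell with the lymphoid level and none rose. Psmb6 fell by 0.135 ± 0.033 for each unit (SE, limma adjusted p = 5.46e-04) and Psmb5 by 0.126 ± 0.028 (adjusted p = 1.84e-04). Psmb7 fell by 0.052 ± 0.021 (adjusted p = 0.0313). The others that fell were Psma1, Psma2, Psma3l, Psma5, Psmb1, Psmb2 and Psmb4. The median slope of the 14 was -0.09, beside -0.028 for all genes. Of the 17 genes of the 19S cap, 2 fell, Psmd6 and Psmd8, and their median slope was -0.019. The chaperones Psmd5 and Psmg4 also fell.

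**Figure D2:**
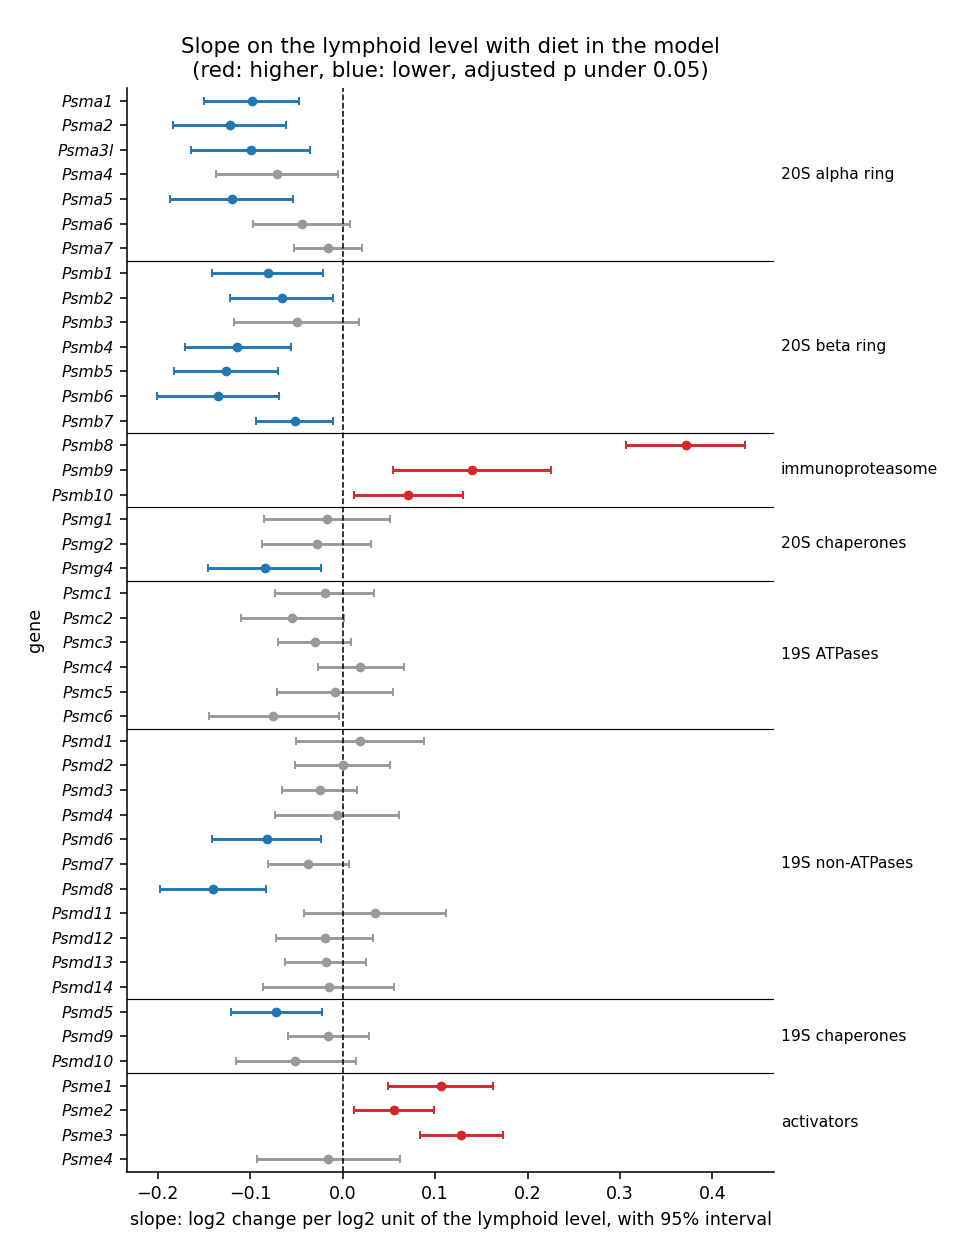
Change of each member in log2 units per log2 unit of the lymphoid level (horizontal axis), with diet in the model and its 95% interval, grouped by role. The 3 immunoproteasome subunits and Psme1 to Psme3 lie to the right of 0, and 10 of 14 standard 20S genes passed to the left.

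The slopes depended on what else was in the model. Using the level of 17 T and NK cell genes in place of B cell genes, 20 members passed, 19 of them in common. Leaving out the 2 arrays of highest lymphoid level, 18 members passed; Psmb10 and Psme2 were the ones lost, as they were when array medians were centred. With the level of 18 colonic epithelium genes added, 3 members passed: Psmb8, Psmb9 and Psme3. The median of that epithelial level was 10.15 in HAMS and 10.43 to 10.72 in the other diets, and the level ran from 9.65 to 10.75 in HAMS. In place of the lymphoid level, the epithelial level gave the 20S genes positive slopes, with 12 of 14 passing upward; 50.1% of all genes passed there, 34.9% upward. Lymphoid and epithelial shares of the tissue, as sources of these slopes, cannot be told apart here.

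**Figure D3:**
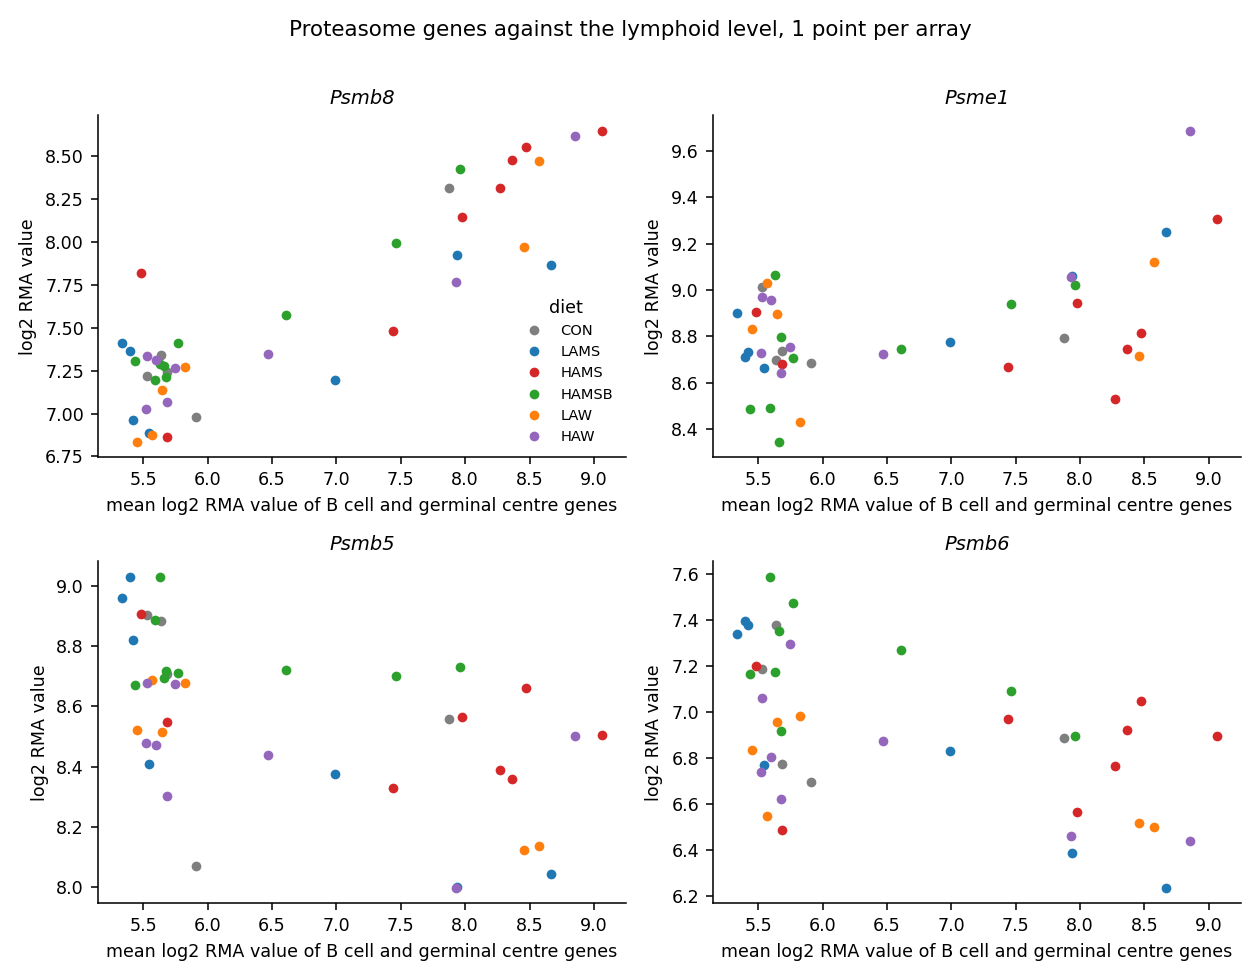
Log2 RMA values of Psmb8, Psme1, Psmb5 and Psmb6 against the mean log2 value of 11 B cell and germinal centre genes, with 1 point for each of the 43 arrays, coloured by diet. The highest Psmb8 value, 8.65 in HAMS, and the lowest Psmb6 value, 6.23 in LAMS, both lie at a level above 7, while single arrays at low levels overlap with those at high ones.

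Of 17 tested genes of class I antigen presentation, 11 rose with the lymphoid level, none fell and 6 did not pass, beside 54% of all genes passing and 18.7% upward. Their slopes were positive for 12 and negative for 5. Tap1 rose by 0.28 ± 0.03 per unit (limma adjusted p = 1.35e-09) and Tap2 by 0.15 ± 0.03. Rfx5, a transcription factor of MHC genes, rose by 0.21 ± 0.02. The class I genes RT1-M3-1 and RT1-N2 rose by 0.24 ± 0.03 and 0.30 ± 0.04. Of 20 interferon response genes, 9 rose and 1 fell with the lymphoid level, beside 18.7% and 35.3% of all genes, led by Irf8 (0.36 ± 0.02) and Gbp5 (0.42 ± 0.03). Irf1, the factor that interferon-gamma uses at these promoters, had a slope of 0.04 ± 0.05 and did not pass (adjusted p = 0.48). The median of Ifng, interferon-gamma itself, lay below the floor.

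Between diets, single members passed the test. In the F test over the 6 diets, 10 of 46 members passed (21.7%), beside 31% of all genes tested. They were Psma1, Psma2, Psma6, Psmb1, Psmb2, Psmb4, Psmc6, Psmd2, Psme4 and Psmg4. Psme4 had the smallest adjusted p of the 10 (0.00206, limma), then Psmg4 (0.00365), Psmd2 (0.00441) and Psma6 (0.00903). With naming style of the array files as a block none of these 4 passed (adjusted p = 0.0869, 0.145, 0.236 and 0.272 in that order, limma). The immunoproteasome subunits were not among them: Psmb9 had an adjusted p of 0.0911 and Psmb8 of 0.194.

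**Figure D4:**
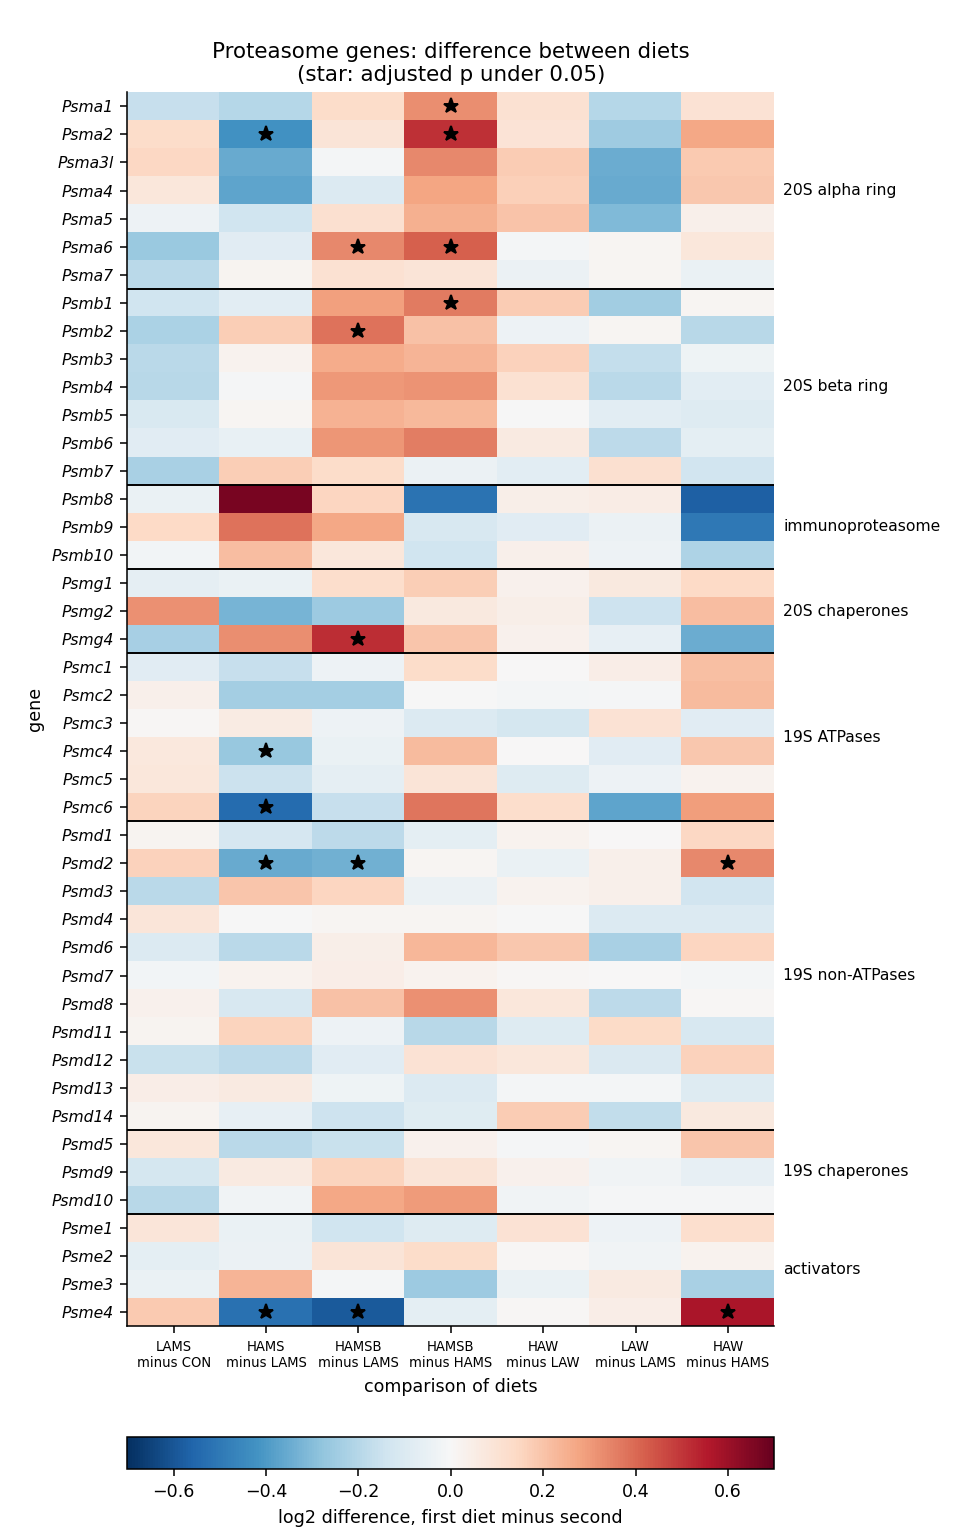
Log2 difference of each tested proteasome gene in 7 comparisons of diets (columns), grouped by role (rows); red is higher and blue lower in the first diet, and a star marks an adjusted p under 0.05. The stars lie in the comparisons that involve HAMS or HAMSB.

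HAMS minus LAMS asks what high-amylose maize starch did beside low-amylose maize starch. Here 5 members fell and none rose, 10.9% of members beside 14.2% of all genes (12.1% lower, 2.13% higher). Psmc6, an ATPase of the 19S ring, ran from 8.07 over a median of 8.29 to 8.49 in LAMS and from 7.16 over 7.72 to 8.18 in HAMS. Its difference was -0.54 ± 0.15 (SE, limma adjusted p = 0.0163), and all 8 HAMS rats lay at or below the LAMS median. In CON Psmc6 was at 7.89, 8.06, 8.10, 8.23 and 8.35, and its medians were 8.13 in HAMSB, 8.15 in LAW and 8.03 in HAW.

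Psme4, the activator PA200, ran from 8.29 over 8.76 to 8.85 in LAMS and from 7.63 over 8.29 to 8.41 in HAMS. It fell by 0.52 ± 0.15 (SE, limma adjusted p = 0.0242). Psmd2, a scaffold of the 19S base that receives ubiquitin-shuttling proteins, ran from 9.35 over 9.59 to 9.77 in LAMS and from 8.96 over 9.24 to 9.48 in HAMS. It fell by 0.35 ± 0.10 (adjusted p = 0.0197), with 6 of 8 HAMS rats below every LAMS rat. The remaining genes were the alpha subunit Psma2 (-0.42 ± 0.14, adjusted p = 0.0389) and the ATPase Psmc4 (-0.27 ± 0.09, adjusted p = 0.0434). In CON Psma2 was at 8.01, 8.10, 8.18, 8.37 and 8.41 and Psmc4 at 9.04, 9.06, 9.11, 9.11 and 9.25. A second Psmc4 probe set had means of 9.05 in LAMS and 8.80 in HAMS.

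The naming style of the array files and the spread of values on an array also differed between these diets. The 8 HAMS files share 1 style, which 3 of the 7 LAMS files have. With style as a block the differences of Psme4, Psmd2 and Psmc4 were -0.19 (limma adjusted p = 0.294), -0.20 (0.148) and -0.14 (0.238), that of Psma2 was -0.45 (0.0524), and Psmc6 was the only one of the 5 to pass. Psma5, Psmb3, Psmd11 and Psme3 also passed there, and 2 of the 5 members called with the block were higher in HAMS. The block called 952 of the 10828 genes tested, 261 of them higher. With array weights 13 of 46 members passed, 4 of them higher. Beside them 4046 of the 10828 genes passed, 1131 of them higher. The interquartile range of an array averaged 3.01 ± 0.14 (SD, n = 8) in HAMS, the narrowest, and 3.21 ± 0.09 (SD, n = 7) in LAMS. With that range as a covariate none of the 5 passed, and their differences were between -0.39 and -0.145. With the lymphoid level as a covariate Psmc6, Psmd2 and Psme4 passed, and Psma2 (-0.29, adjusted p = 0.123) and Psmc4 (-0.29, adjusted p = 0.0506) did not. Without HAMS replicate 6, the HAMS array of lowest spread, Psmc6 alone passed. Among other cell types, 8 of 11 fibroblast and 4 of 18 epithelial genes were lower in HAMS, and all 11 B cell genes had positive differences with none past the threshold.

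HAMSB minus LAMS compared butyrylated starch with low-amylose starch, and 5 members passed (10.9%, beside 6.84% of all genes, 2.2% higher and 4.65% lower). Psma6, Psmb2 and Psmg4 rose and Psmd2 and Psme4 fell. Psmg4, a chaperone that helps assemble the alpha ring, ran from 5.36 over a median of 5.69 to 6.35 in LAMS and from 6.10 over 6.37 to 6.77 in HAMSB. It rose by 0.52 ± 0.13 (SE, limma adjusted p = 0.015), and all 9 HAMSB rats lay above the LAMS median. In CON Psmg4 was at 5.77, 5.85, 6.05, 6.35 and 6.37, so HAMSB overlapped the control.

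Psmb2, a beta subunit without an active site, ran from 7.91 over 8.30 to 8.52 in LAMS and from 8.41 over 8.73 to 9.08 in HAMSB. It rose by 0.38 ± 0.11 (SE, limma adjusted p = 0.0372). In CON it was at 8.01, 8.44, 8.62, 8.67 and 8.86. Psma6, an alpha subunit, rose by 0.34 ± 0.10 (adjusted p = 0.04). Psme4 was at 7.55, 8.02 and 8.43 (lowest, median, highest) in HAMSB and fell by 0.59 ± 0.15 (adjusted p = 0.0173), the most negative difference of the 46 members here. Psmd2 fell by 0.34 ± 0.10 (adjusted p = 0.0314). With array medians centred, Psmg4 rose and Psmd2 and Psme4 fell, and Psma6 (0.30, adjusted p = 0.0849) and Psmb2 (0.34, adjusted p = 0.0794) no longer passed. With naming style as a block none of the 5 passed (Psmd14 did), with Psme4 closest (-0.41, adjusted p = 0.0548). The differences were then 0.38 for Psmg4 (adjusted p = 0.0836), 0.37 for Psmb2 (0.0962), 0.22 for Psma6 (0.301) and -0.26 for Psmd2 (0.132). Without LAMS replicate 3, no member passed.

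In HAMSB minus LAMS all 7 standard beta genes had a positive difference, from 0.13 to 0.38 with a median of 0.285, and 1 of them passed. The 6 ATPases all had a negative one, with a median of -0.05. The median of all genes was 0.00. The beta values in LAMS differed with naming style. Psmb1 was at 8.55, 8.69 and 8.72 in the 3 LAMS rats of the style shared with HAMSB, and from 7.90 to 8.05 in the other 4. Psmb5 was at 8.82, 8.96 and 9.03 in those 3, and from 8.67 to 8.89 in the 5 HAMSB rats of that style. Psmb2 was at 8.40, 8.52 and 8.52 in those 3, and from 8.73 to 9.08 in those 5.

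HAMSB minus HAMS compares high-amylose maize starch with and without butyrylation. Here 4 members rose and none fell, 8.7% beside 17% of all genes (14.5% higher, 2.58% lower). All 4 were 20S ring genes. Psma2 ran from 7.46 over a median of 7.91 to 8.35 in HAMS and from 7.63 over 8.54 to 8.65 in HAMSB. It rose by 0.51 ± 0.13 (SE, limma adjusted p = 0.00808), with 7 of 9 HAMSB rats above every HAMS rat and 1, replicate 6, at 7.63. Psma6 ran from 8.03 over 8.43 to 8.65 in HAMS and from 8.61 over 8.79 to 9.11 in HAMSB. It rose by 0.42 ± 0.10 (adjusted p = 0.00531). In CON, Psma6 was at 8.49, 8.64, 8.68, 8.94 and 8.94, within the HAMSB range or just below it.

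Psmb1, a beta subunit without an active site, ran from 7.92 over 8.23 to 8.49 in HAMS and from 8.33 over 8.63 to 8.68 in HAMSB. It rose by 0.36 ± 0.12 (SE, limma adjusted p = 0.0344). Psma1 rose by 0.325 ± 0.11 (adjusted p = 0.0369), and all 9 HAMSB rats lay above the HAMS median. The calls of Psma2 and Psma6 held with each of the 17 rats left out in turn, while that of Psma1 was lost in 10 of these runs and that of Psmb1 in 8. With naming style as a block 11 members passed, 8 higher and 3 lower in HAMSB, all 4 named here among them. Beside them 3338 of the 10828 genes tested passed, 2121 of them higher. With array spread as a covariate 6 members passed, 3 higher and 3 lower, and Psma1 did not (0.30, adjusted p = 0.0509). Of all genes 2487 passed with that covariate, 1441 of them higher. Over the 14 standard 20S genes, 13 had a positive difference with a median of 0.30, beside 0.07 for all genes. Over the 17 genes of the 19S cap the median was 0.02 and none passed.

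The lymphoid level differed in this comparison too: all 11 of its genes were lower in HAMSB, with a median of -1.55, and 2 passed. All 18 epithelial genes were higher, with a median of 0.43, and 8 passed. With the lymphoid level as a covariate none of the 4 members passed. Their differences were then 0.19 for Psma1, 0.34 for Psma2 (limma adjusted p = 0.11), 0.35 for Psma6 (adjusted p = 0.0532) and 0.25 for Psmb1. The same covariate left all 5 calls of HAMSB minus LAMS in place.

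**Figure D5:**
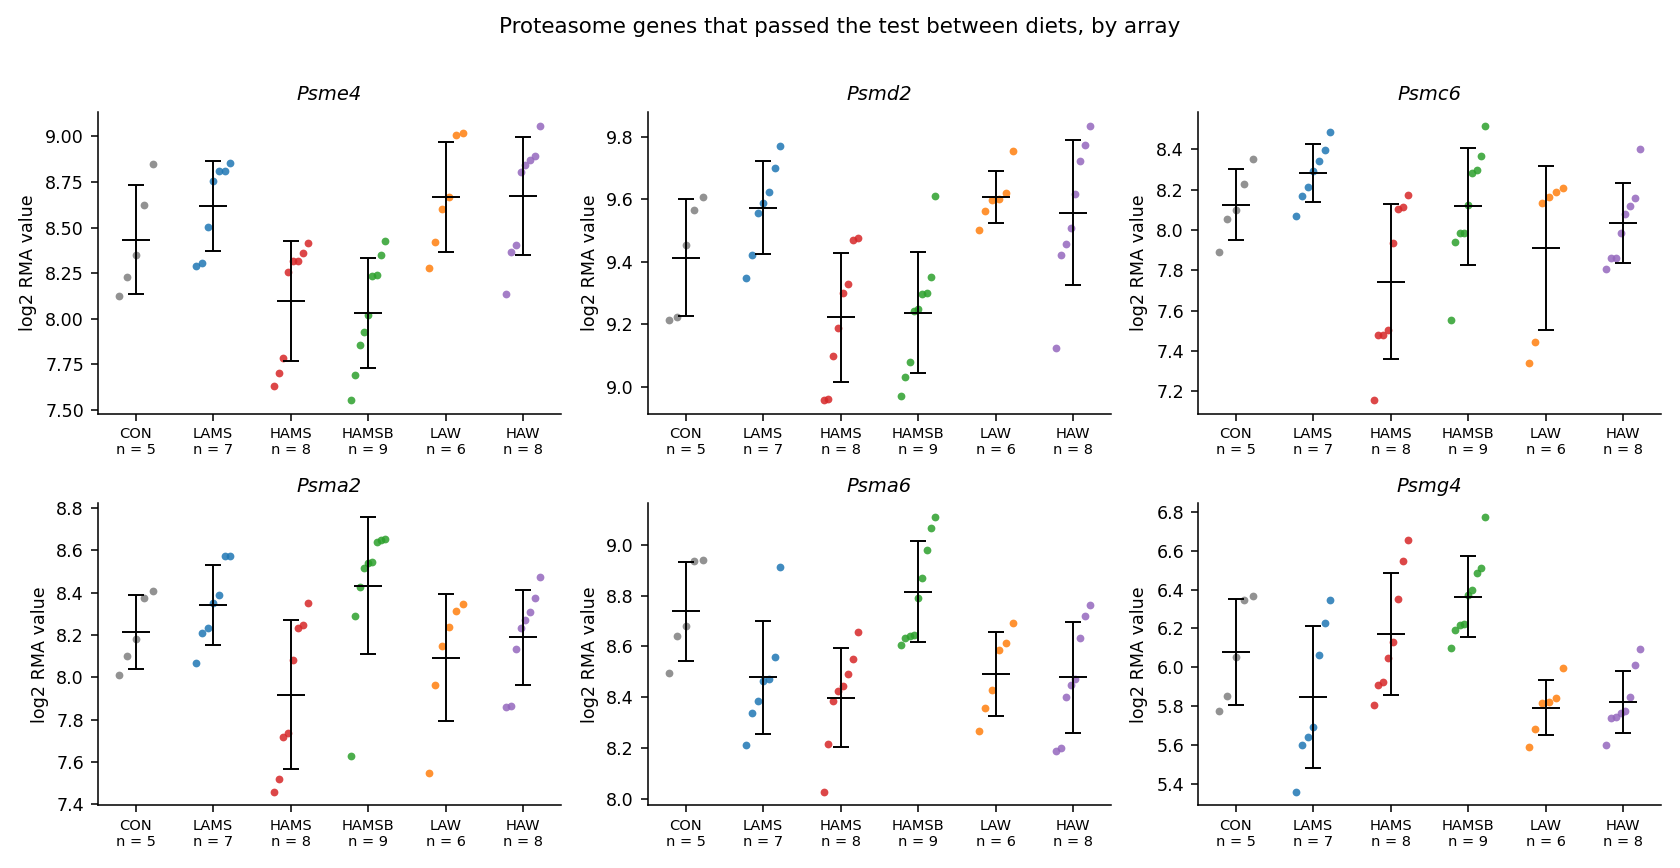
Log2 RMA values of 6 members that passed in a comparison of 2 diets, with 1 point per rat, the diet mean as a long bar and 1 SD as whiskers. Psme4 and Psmd2 are low in both HAMS and HAMSB, and Psmc6 and Psma2 in HAMS. Psma6 and Psmg4 have their highest medians in HAMSB, 8.79 and 6.37. In CON these medians are 8.68 and 6.05, and in HAMS that of Psmg4 is 6.09.

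No member passed within wheat. HAW minus LAW, the amylose effect within wheat, had 0 members and 0% of all genes past the threshold; at an unadjusted p under 0.05 there were 209 genes and 0 members in limma. The member differences lay between -0.12 and 0.20. LAW minus LAMS also had 0 members and 0% of genes, with 188 genes and 3 members at an unadjusted p under 0.05. LAMS minus CON, the Western diet against the control, had 0 members and 0% of genes, with 935 genes and 5 members unadjusted. There all 7 standard beta genes had a negative difference, from -0.22 to -0.08. The median of all genes was -0.04, and the 7 LAMS rats are those of HAMSB minus LAMS. Among the alpha genes, Psma2, Psma3l and Psma4 had higher means in LAMS than in CON, and the others lower. The median 95% half-width of a member was 0.29 in LAMS minus CON and 0.26 in HAW minus LAW.

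Psme4 and Psmd2 were again the members that passed in HAW minus HAMS, which compares the high-amylose forms of wheat and maize (4.35% of members, beside 13.3% of all genes, 11% higher and 2.33% lower). Psme4 ran from 8.14 over a median of 8.82 to 9.06 in HAW and rose by 0.57 ± 0.15 against HAMS (SE, limma adjusted p = 0.0138). Psmd2 ran from 9.12 over 9.56 to 9.84 in HAW and rose by 0.335 ± 0.10 (adjusted p = 0.0209). In LAW, Psme4 ran from 8.28 over 8.63 to 9.02 and Psmd2 from 9.50 over 9.60 to 9.75. In CON, Psme4 was at 8.13, 8.23, 8.35, 8.62 and 8.85, with a median between those of the wheat diets and those of HAMS and HAMSB, and Psmd2 at 9.21, 9.22, 9.46, 9.57 and 9.61. With naming style as a block neither passed (Psme4 0.21, adjusted p = 0.232; Psmd2 0.17, adjusted p = 0.212), and with array spread as a covariate neither did (Psme4 0.31, adjusted p = 0.177; Psmd2 0.19, adjusted p = 0.229). Psmb9 also passed with the stricter filter on low signal and without the 2 arrays of lowest spread, and Psmb8, Psmb9 and Psmb10 passed with array weights. Those weights called 4734 of the 10828 genes tested.

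The difference between the amylose effect in wheat and that in maize was tested directly, and 0 members passed (0.0277% of all genes did, 0.00924% higher and 0.0185% lower). At an unadjusted p under 0.05 there were 9 members. So an amylose effect on Psme4, Psmd2, Psmc6, Psma2 or Psmc4 past the threshold in maize was not shown to differ from that in wheat. With array weights Psmc6, Psmd2 and Psme4 passed, beside 1133 of the 10828 genes tested. The median 95% half-width of a member was 0.37 in this comparison.

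Of 21 tested genes that build or serve the proteasome, its partners, 5 rose in HAMSB minus HAMS and none fell, beside 17% of all genes called and 14.5% higher. Their differences were positive for 11 and negative for 10, with a median of 0.00 beside 0.07 for all genes. Pomp, the chaperone that completes the 20S core, rose by 0.64 ± 0.13 (SE, limma adjusted p = 0.0021), a larger estimate than for any member. Sem1, a small subunit of the 19S lid, rose by 0.67 ± 0.19 (adjusted p = 0.0164), and Uchl5, a deubiquitinase on the cap, by 0.42 ± 0.12 (adjusted p = 0.0164). The fifth was the thioredoxin-like Txnl1 (0.37 ± 0.13, adjusted p = 0.0395), named after its value was seen. Nfe2l2, the oxidative stress factor, rose by 0.48 ± 0.12 (adjusted p = 0.0059). Pomp and Sem1 fell with the lymphoid level, by 0.144 ± 0.028 and 0.204 ± 0.041 per unit, as the 20S genes did. With the epithelial level as a covariate 0 of the 10828 genes tested passed in HAMSB minus HAMS, so none of these 5 did. With the lymphoid level as a covariate 231 passed.

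In HAMS minus LAMS, 2 of the 21 partners fell, beside 12.1% of all genes: Nfe2l2 by 0.53 ± 0.12 (SE, limma adjusted p = 0.00914) and Nfe2l1, the factor that raises proteasome genes when the protease is inhibited, by 0.29 ± 0.09 (adjusted p = 0.0337). Both rose in HAW minus HAMS, by 0.50 ± 0.12 and 0.30 ± 0.09. With array spread as a covariate 6 of the 10828 genes tested passed in HAMS minus LAMS and 24 in HAW minus HAMS. In HAMSB minus LAMS, Sem1 rose by 0.65 ± 0.20 (adjusted p = 0.04) and Uba6, an enzyme that activates ubiquitin, fell by 0.79 ± 0.21 (adjusted p = 0.0206). With Uba6 the slope on the lymphoid level was positive, 0.16 ± 0.05.

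Of the 17 genes of class I loading, few passed between diets and in both directions. Of all genes tested, 14.2% passed in HAMS minus LAMS, 6.84% in HAMSB minus LAMS and 13.3% in HAW minus HAMS. Erap1, which trims peptides for class I, fell in HAMS minus LAMS (-0.54 ± 0.12, limma adjusted p = 0.00811) and in HAMSB minus LAMS (-0.53 ± 0.12, adjusted p = 0.0108). It rose in HAW minus HAMS (0.59 ± 0.12, adjusted p = 0.00528), so its calls stand in the same comparisons as those of Psme4. The class I gene RT1-CE5 rose in HAMS minus LAMS by 0.60 ± 0.20 (adjusted p = 0.0419). Tap1 and Tap2 differed there by 0.35 ± 0.22 and 0.41 ± 0.15 (adjusted p = 0.0527) and did not pass. Of 20 interferon response genes, 2 rose in HAMS minus LAMS, Irf2 (0.53 ± 0.13, adjusted p = 0.0118) and Socs1, an inhibitor of the response (0.41 ± 0.12, adjusted p = 0.0261). Of all genes tested 2.13% rose there. In HAMSB minus HAMS, Irf2 (-0.55 ± 0.13) and Irf8 (-0.82 ± 0.22) fell, beside 2.58% of all genes. Irf1 differed by -0.18 ± 0.18 in HAMS minus LAMS (adjusted p = 0.488). The array spread covariate left 6 of the 10828 genes tested past the threshold in HAMS minus LAMS and 24 in HAW minus HAMS. The epithelial covariate left 0 in HAMSB minus HAMS.

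Within diets the subunits of 1 complex moved together to different degrees. The first principal component of the values centred on diet means held 59% of the variance of the 14 standard 20S genes, beside 7.14% if each direction held an equal share, and all 14 loaded with 1 sign. For the 17 genes of the 19S cap it held 32.9%, beside an equal share of 5.88%, and for the 3 immunoproteasome subunits 83.8%, beside 33.3%. These are descriptions, since all genes of an array share its depth of signal and its tissue makeup. Of the 17 members that passed a slope on the interquartile range of the array, 11 were 19S genes, 1 was a standard 20S gene and none was an immunoproteasome subunit (50.7% of all genes passed, 38.4% upward).

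The 2 genes that share only the name gave no call in the comparisons of diets above. Psmc3ip, a factor of meiotic recombination, and Psme3ip1, a nuclear partner of Psme3, passed neither there nor with the lymphoid level; Psme3ip1 passed the F test with array spread as a covariate.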

How the data were processed

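RNA of 43 rat distal colons was hybridised to Affymetrix arrays. The authors normalised the log2 values by RMA before deposit, per the submitters' processing notes, which give no version; the values run from 1.313 to 14.049. Of 29214 probe sets, 15310 carry 1 symbol, 323 several and 13581 none. For each of the 14506 symbols the probe set of highest mean was kept, and 10828 genes whose median reached 4.79, the 25th percentile, were tested. Diet means were fitted with limma 3.58.1 (R 4.3.3; lmFit, eBayes), with Benjamini-Hochberg adjustment over all genes tested and a threshold of 0.05. Slopes on the lymphoid level keep diet in the model. Members, marker lists and gene lists were chosen with earlier results of these data known. Named genes are all members, and of other lists up to 4 genes of smallest p per comparison, plus Tap1, Tap2 and Irf1; 1 further gene of that rule is not reported here. Each array is 1 rat, and precision is limited by how many arrays a diet has. The fit was tested on simulated data. Alternatives were other filters, probe set choices, priors and array weights, centring, blocks, covariates, subsets and leaving out each array; those with the epithelial level, with style and lymphoid level together, and without the arrays of lowest spread or highest lymphoid level were added once the data had been seen. Promoter windows run from 250 bases before to 50 after the RefSeq start in GRCr8, and 41 of 47 symbols had one. Python 3.11.15, pandas 2.3.3 and matplotlib 3.10.9 were used.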

Additional observations from a re-analysis of the deposited data

Results flagged for a closer look

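Among 114 groups of 1 gene in 1 diet (19 genes), 6 held a rat set apart from the others by Dixon's criterion, and chance alone gives about 1 in 20. Psmb8 stood apart upward in CON replicate 5, at 8.31 with the next rat at 7.34, and in HAW replicate 5, at 8.62 with the next at 7.77. Psme1 stood apart in the same HAW rat, at 9.69 with the next at 9.06. These rats had the highest lymphoid level of their diets, 7.87 in CON and 8.85 in HAW. Psma2 was low in HAMSB replicate 6, at 7.63 with the next at 8.29. Psmb7 was low in HAMSB replicate 5, at 8.80 with the next at 9.01. Psmc4 was low in HAMS replicate 3, at 8.57 with the next at 8.90.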

How the results depend on the processing

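Counts of members past the threshold are compared with 0 for LAMS minus CON, 5 for HAMS minus LAMS, 5 for HAMSB minus LAMS, 4 for HAMSB minus HAMS, 2 for HAW minus HAMS, 0 for the difference of amylose effects, 10 for the F test and 20 for the lymphoid slope. The gene-level results followed were the calls between diets without alternatives, and the 3 immunoproteasome subunits in HAMS minus LAMS and HAMSB minus HAMS. None of them changed sign while past the threshold. Counts of members aside, 401 kept their side, 145 lost it and 8 gained it. Other members were not followed in this way. Psmb3 had means of 8.11 in HAMS and 8.08 in LAMS. It passed in HAMS minus LAMS within 1 naming style, where the LAMS rats were at 8.36, 8.50 and 8.59 and the highest HAMS rat at 8.33. Array weights gave 3, 13, 15, 15, 13, 3 and 26 of 46 members for the first 7 of the counts that open this paragraph. Of all 10828 genes they called 246, 4046, 3733, 3804, 4734, 1133 and 7507 in that order. Centred array medians gave 3 in HAMSB minus LAMS (1 higher, 2 lower, against 3 and 2), beside 535 of all genes. The block on file naming style gave 1 and 11 for HAMSB against LAMS and HAMS, beside 329 and 3338 of all genes. It gave 5 in the F test, beside 1399 of all genes, and 1 of the 5 (Psma2) is among the 10. Within 1 style the counts were 9 for HAMS and 0 for HAMSB against LAMS, and 9 for HAMSB and 0 for HAW against HAMS. Beside them stood 1219, 38, 2399 and 7 of all genes. Style with lymphoid level gave 0, 3, 0 and 0 for these 4 comparisons in that order and 1 in the F test (Psmd14, not among the 10). Of all genes it called 86 for HAMS and 883 for HAMSB against LAMS, 35 for HAW against HAMS and 553 in the F test. For HAMSB against HAMS it called fewer than the 1845 without alternatives. The epithelial covariate gave 0, 3, 0 and 0 for the same 4 comparisons in the same order, 4 in the F test and 3 for the slope. Of all genes it gave 22, 1312, 0 and 48, 2631 in the F test and 1503 for the slope. Fitting the compared diets alone gave 1 for HAMS against LAMS, and 7 for HAMSB and 0 for HAW against HAMS. Of all genes that fit called 1798 for HAMSB and 25 for HAW against HAMS, beside 1845 and 1445 without alternatives. For HAMS against LAMS it called fewer than the 1536 without alternatives. The lymphoid covariate gave 0 for HAMSB against HAMS, beside 231 of all genes. The array spread covariate gave 0 for HAMS against LAMS and 0 for HAW against HAMS, beside 6 and 24 of all genes. Without the 2 arrays of lowest spread the counts were 3 for HAMS against LAMS, and 2 for HAMSB and 4 for HAW against HAMS. Those of all genes were 1028, 1568 and 2195. Leaving out 1 array gave 1 (HAMS replicate 6) to 9 (HAMS replicate 1) in HAMS minus LAMS, 0 (LAMS replicate 3) to 7 (LAMS replicate 1) in HAMSB minus LAMS, 2 (HAMS replicate 2 and 7 others) to 10 (HAMS replicate 1) in HAMSB minus HAMS, 1 (HAMS replicate 6 and 4 others) to 6 (HAW replicate 8) in HAW minus HAMS, 5 (HAMSB replicate 4) to 12 (HAMS replicate 5) in the F test and 16 to 22 for the slope. The replicate block gave 1 for HAMS and 3 for HAMSB, both against LAMS, beside 603 and 836 of all genes. The numbers do not pair the rats: deviations of same-numbered arrays of other diets correlated at -0.0588 on average (94 pairs), beside 0.0135 for other pairs (671). The cause of these shifts was not tested.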
